A study of Mus musculus with 6 samples.

Results

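The Rab GTPases are small GTP-binding proteins that give each membrane compartment its identity and direct vesicles between compartments. Exchange factors (GEFs) load a Rab with GTP, GTPase-activating proteins (GAPs) switch it off, and in the GTP state the Rab recruits effectors that move, tether or fuse the vesicle. In neutrophils they are best known for the release of preformed granules and for the maturation of phagosomes. Genes were counted as Rab GTPases when annotated as protein coding and named Rab followed by a number and at most a letter and a digit, which gave 59 of the 56884 genes in the deposited table. By the compartment each is best known for, 13 were placed as secretory, 7 as early endosomal, 14 as late endosomal or lysosomal, 9 as recycling, 12 as ER and Golgi, and 4 as other.

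Bulk RNA sequencing was run on mouse bone marrow neutrophils that had been sorted as mature by their CD101 and Ly6G. One group was cultured ex vivo with DKK1 (Dickkopf-1, a secreted Wnt antagonist, 3 libraries) and the other ex vivo without it (3 libraries, called control). No dose of DKK1, culture time, mouse strain or age is stated in the sources used here. Whether each library had its own animal or culture is not stated either, so the p-values cover the spread among these libraries alone, and that spread may be technical.

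The reads behind the values totalled 5188116 to 8749228 per DKK1 library and 8688911 to 9851961 per control library. DKK1 library 2, with the fewest reads, stood apart: the chi-square per degree of freedom between libraries was 13.6 and 12.5 for its pairs with the other DKK1 libraries and 2.99 for the other DKK1 pair, against 2.19 to 2.26 for the control pairs. Normalized counts summed to 6738824 ± 336773 in DKK1 and 9729307 ± 39771 in control (SD, n = 3 each), so the deposited scaling does not equalize totals. The DKK1 libraries went against the labelled cell type: all 12 neutrophil markers examined were lower, with a summed level of 3615 to 4200.0 normalized counts in DKK1 and 715237 to 740796 in control. Cd101, a sorting marker, averaged 3.53 ± 2.31 in DKK1 and 5098 ± 178 in control (SD, n = 3 each). Of 15 macrophage markers 6 were higher and 6 lower, and their sum was 31145 to 34291 in DKK1 and 5903 to 6226 in control, led by Gpnmb (14292 in DKK1 and 3.17 in control). C1qa, a macrophage complement gene, had no read in DKK1 and averaged 21.3 in control. Among tested markers of other cells, 5 of 6 B cell genes were lower (summed level 41.2 to 112 in DKK1 and 1476 to 1595 in control), as were 4 of 6 erythroid genes (300.5 to 1496 in DKK1 and 1592 to 1735 in control) and both testable T and NK cell genes, with 0 higher in these lists. Of 8 mast cell, basophil and eosinophil genes 4 were higher and 1 lower (411 to 465 in DKK1 and 353 to 365 in control), and of 4 dendritic cell genes 2 were higher and 1 lower. Whether these markers have a part in the Rab differences was not tested. In bulk RNA, fewer cells of a type cannot be told apart from less RNA per cell.

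Most measurable Rab transcripts differed between the groups, and more were lower than higher with DKK1. Of the 59 genes, 48 could be tested, having reached a normalized count of 1 in 3 or more libraries. By limma with Benjamini-Hochberg adjustment over all 16265 genes tested, 28 were lower, 13 were higher and 7 did not pass at 0.05. Over all tested genes the same rule called 36.1% lower and 35.1% higher, 71.2% in all, and over protein-coding genes 36.0% lower and 39.8% higher, 75.8% in all. Later counts by class or list under the deposited scaling stand beside these shares. The groups did not overlap for 29 Rab genes that were lower and 13 that were higher, against 37.4% and 36.5% of all tested genes, 73.9% in all. Among the 35 Rab genes whose higher group mean was at least 100, 23 were lower and 10 higher, where 44.8% of all such genes were lower and 43.8% higher, 88.7% in all. The median log2 change (DKK1 minus control) was -0.87 over the tested Rab genes and -0.029 over all tested genes. With libraries scaled to equal totals, which moves the median of all genes up by 0.48, the median was -0.34 over the 44 Rab genes that still entered, and the split was 22 lower and 17 higher. Under that scaling 28.9% of all tested genes were called lower and 44.8% higher, the shares beside which every later count with equal totals stands. Rab34 (12 reads in DKK1 and 0 in control), Rab25 (0 reads in DKK1 and 4 in control) and Rab36 (0 reads in DKK1 and 5 in control) reached the filter through the libraries of a single group, so their calls carry no support. Without them, 26 of 45 tested Rab genes were lower and 12 higher.

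**Figure D1:**
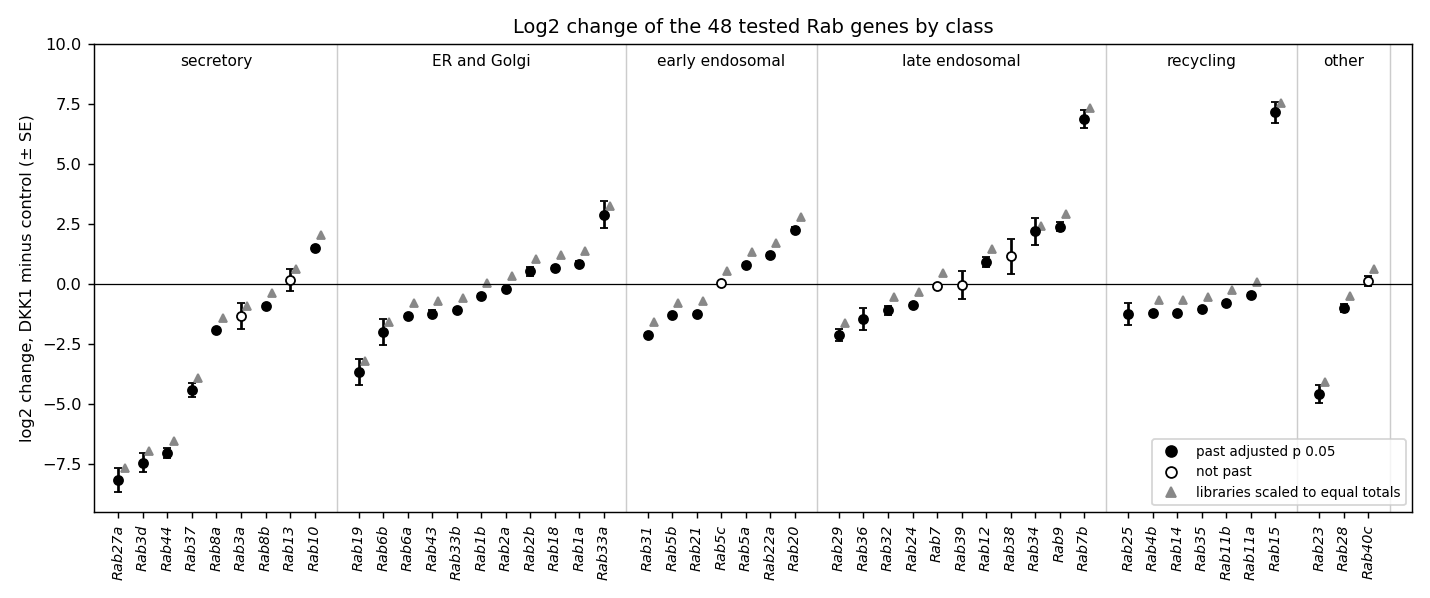
Log2 change in normalized count (DKK1 minus control, on the log2(value + 1) scale, ± SE, 3 libraries per group) of the 48 tested Rab genes, grouped by compartment. Filled circles passed the adjusted p of 0.05, open circles did not, and grey triangles give the change with libraries scaled to equal totals; Rab27a lies at -8.15 and Rab15 at 7.15.

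Secretory Rabs, which bring granules and post-Golgi vesicles to the plasma membrane, held the 3 deepest falls. Of the 9 tested, 6 were lower, Rab10 alone was higher and 2 did not pass (median change -1.93 on the log2 scale). Summed over the class, the level was 1171 ± 20.4 normalized counts per kb of exon in DKK1 and 4032 ± 55.0 in control (SD, n = 3 each). As a share of the whole family's summed level per kb, which does not depend on how libraries are scaled, secretory Rabs made up 11.8% ± 0.594 in DKK1 and 27.3% ± 0.212 in control.

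Rab27a (ENSMUSG00000032202.12, chromosome 9, 73044854 to 73097629, plus strand) docks neutrophil granules at the plasma membrane. Its normalized count was 38.0, 6.87 and 13.1 in DKK1 libraries 1 to 3, against 4589, 4756 and 4575 in control libraries 1 to 3. Every DKK1 library lay below every control library, and the mean was 240-fold lower (limma adjusted p = 1.71e-06, log2 change -8.15, SE 0.50). Without DKK1 library 1 it was 466-fold lower. Per kb of exon it ranked 35 within the family in DKK1 and 2 in control. The related Rab27b was too low to test, with 3 reads in DKK1 and 0 in control.

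Rab3d (ENSMUSG00000019066.14, chromosome 9, 21907491 to 21918192, minus strand) marks secretory granules of exocrine and mast cells. It had 11.2, 2.75 and 9.80 normalized counts in the DKK1 libraries, against 1384, 1343 and 1359.6 in control, a 172-fold lower mean (limma adjusted p = 1.61e-07, log2 change -7.43, SE 0.39). Rab44 (ENSMUSG00000064147.8, chromosome 17, 29114145 to 29148980, plus strand), an unusually large Rab of blood cells, stood at 32.8, 16.5 and 26.1 in DKK1 and at 3307, 3355 and 3308 in control. That is 132-fold lower (limma adjusted p = 3.66e-09, log2 change -7.04, SE 0.21). Rab37, a granule Rab of mast cells, had 9.69, 10.99 and 4.90 in DKK1 and 180.1, 195 and 199.998 in control, 22.5-fold lower. None of these 4 granule Rabs overlapped between groups, and neither did 73.9% of all tested genes. Neutrophil markers fell in the same libraries, as given above.

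The promoter stretches of Rab27a and Rab3d are shown because these 2 genes had the deepest falls in the family. They are the 120 bases before the annotated start (RefSeq, GRCm38.p6), at chr9:73044690-73044809 on the plus strand for Rab27a and chr9:21918184-21918303 on the minus strand for Rab3d. Searched on both strands for CACGTG (E-box), its longer form TCACGTGA, TGANTCA (the AP-1 site), TTGCNNCAA (the C/EBP site) and GAGGAAGT (a PU.1 site), neither stretch held a match, so no base is in capitals. Of the 48 Rab genes with a RefSeq promoter, TGANTCA lay within 250 bases before a start in 4.17% (7.82% of all genes), TTGCNNCAA in 0 (1.98%) and GAGGAAGT in 4.17% (2.79%).
Rab27a: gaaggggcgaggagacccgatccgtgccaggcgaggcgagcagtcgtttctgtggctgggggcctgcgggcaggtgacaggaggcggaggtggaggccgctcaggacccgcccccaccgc
Rab3d: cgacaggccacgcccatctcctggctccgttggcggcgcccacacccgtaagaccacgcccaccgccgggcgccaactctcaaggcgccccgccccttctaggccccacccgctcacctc

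The secretory Rabs of general post-Golgi traffic stayed abundant. Rab8b had 2684, 3081 and 2745 normalized counts in DKK1, against 5529, 5072 and 5167 in control (1.85-fold lower, limma adjusted p = 2.2e-06, log2 change -0.89, SE 0.07). Rab8a fell further, to 704, 672 and 687 in DKK1, against 2649, 2689 and 2515 in control, 3.81-fold. Rab10, which carries vesicles to the plasma membrane in many cell types, moved the other way, with 1436, 1353 and 1508 in DKK1 and 488, 513 and 512 in control. It was 2.84-fold higher (limma adjusted p = 8.23e-08, log2 change 1.503, SE 0.07). Among low members, Rab3a, a synaptic vesicle Rab, and Rab13 did not pass (limma adjusted p = 0.051 and 0.742), and Rab26, Rab3b and Rab3c had 0 to 2 reads per group.

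**Figure D2:**
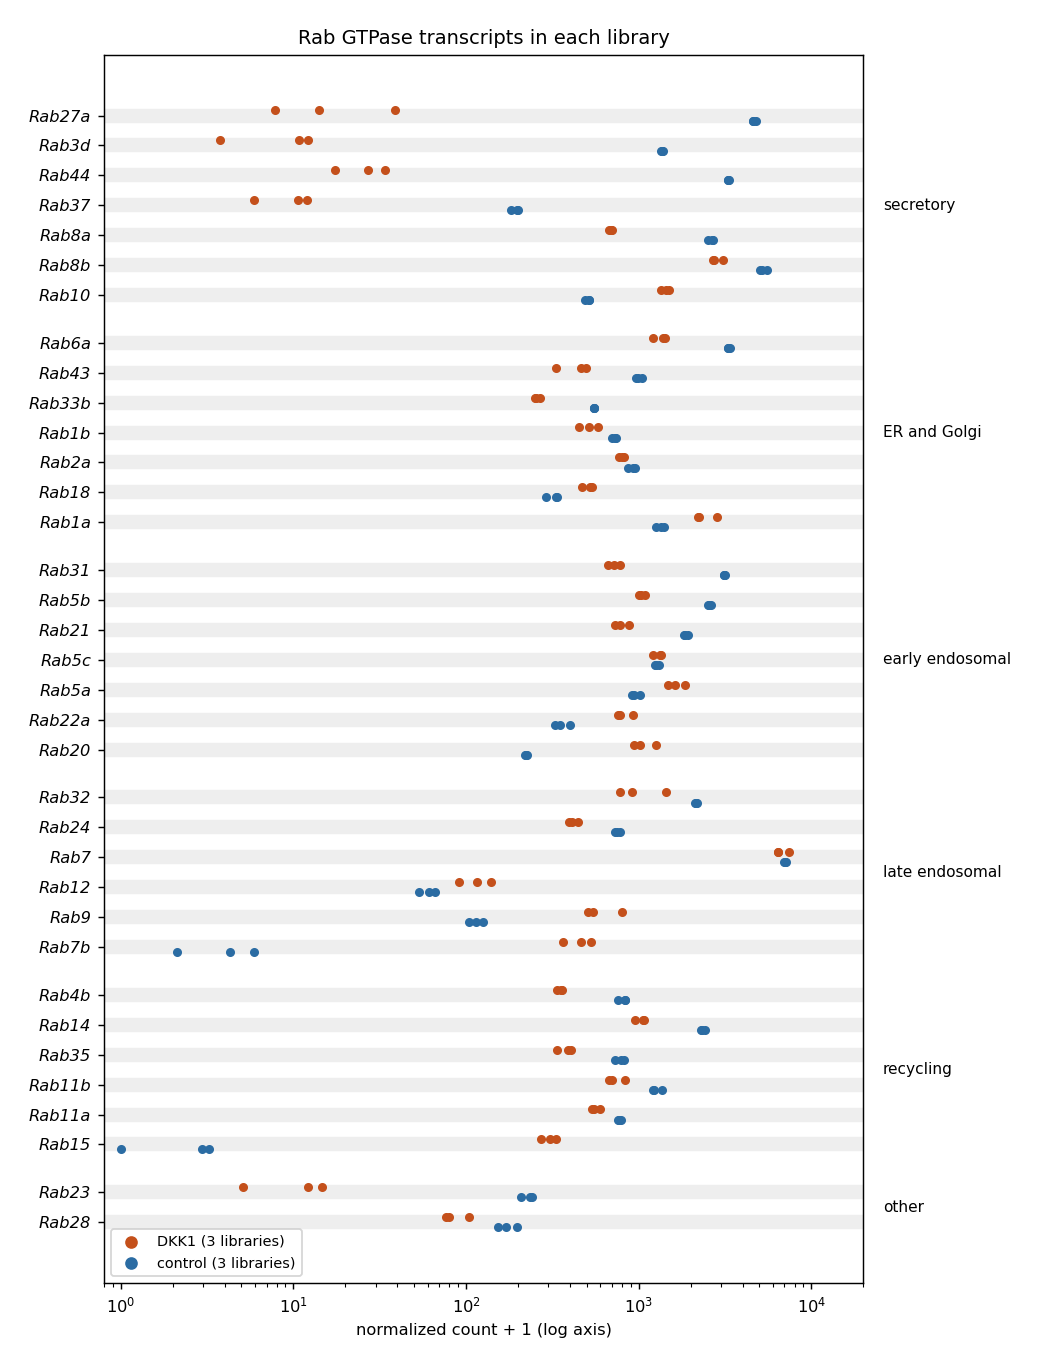
Normalized count + 1 (log axis) in each library for the 35 Rab genes whose higher group mean was at least 100, grouped by compartment, with the 3 DKK1 libraries above the 3 control libraries of each gene. Rab27a, Rab3d, Rab44, Rab37 and Rab23 lie far to the left in DKK1, Rab7b and Rab15 far to the left in control, and the Rab7 and Rab5c points overlap.

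Early endosomal Rabs held as many higher as lower genes, and all tested genes also split nearly evenly (35.1% higher and 36.1% lower). These proteins receive newly formed endocytic vesicles and young phagosomes, and all 7 genes could be tested: Rab20, Rab22a and Rab5a were higher, Rab31, Rab5b and Rab21 were lower, and Rab5c did not pass. The class median was 0.026 on the log2 scale, and the summed level per kb was 2388 ± 140.4 in DKK1 and 2774 ± 34.1 in control (SD, n = 3 each).

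Rab20 (ENSMUSG00000031504.7, chromosome 8, 11453518 to 11478710, minus strand), which acts on maturing phagosomes, had 1024, 1267 and 946 normalized counts in DKK1, against 223, 218 and 226 in control. The groups were well apart, with a 4.86-fold higher mean in DKK1 (limma adjusted p = 1.08e-07, log2 change 2.26, SE 0.11), and its rank per kb within the family was 2 in DKK1 and 24 in control. A transcript on the opposite strand, E230013L22Rik, shares 356 exon bases with Rab20 and stood at 161 ± 54.7 in DKK1 and 47.2 ± 2.66 in control; since the strandedness of the libraries is not stated, reads of the overlap cannot be told apart. Rab22a, which links early and recycling endosomes, had 779, 929 and 754 in DKK1 and 350.3, 327 and 397 in control, 2.29-fold higher.

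Rab31, which carries cargo from the Golgi to endosomes, had 719, 661 and 775 normalized counts in DKK1, against 3151, 3116 and 3110.3 in control. It was 4.35-fold lower, the deepest fall of the class (limma adjusted p = 8.41e-09, log2 change -2.12, SE 0.07). Rab21, a Rab of integrin traffic, had 775, 881 and 733 in DKK1 and 1923, 1864 and 1828 in control, 2.35-fold lower.

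The 3 Rab5 genes, whose products govern fusion of early endosomes, moved apart. Rab5a had 1485, 1852 and 1629.7 normalized counts in DKK1, against 1011, 937 and 912 in control, 1.74-fold higher (limma adjusted p = 3.87e-05, log2 change 0.79, SE 0.09). Rab5b had 1007, 1081 and 1030.4 in DKK1, against 2627, 2567 and 2520.2 in control, 2.47-fold lower (limma adjusted p = 6.22e-08, log2 change -1.31, SE 0.06). Rab5c lay at 1344, 1217 and 1335 in DKK1 and at 1257, 1315 and 1251 in control, with overlapping groups (limma adjusted p = 0.744). With equal totals Rab5c was higher (log2 change 0.56), while Rab5a and Rab5b kept their directions. Within the Rab5 set, Rab5a made up 27.2% ± 2.73 of the summed level per kb in DKK1 and 13.2% ± 0.553 in control, and Rab5b 21.4% ± 0.580 in DKK1 and 44.6% ± 0.487 in control (SD, n = 3 each). Neither share overlapped between groups (exact two-sided permutation test p = 0.1 for each, the smallest that 3 against 3 allows).

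Among Rab promoters, CACGTG lay within 250 bases before a start in 5 of the 48 genes with a RefSeq entry (10.4%), against 6.86% of all 27025 genes in the table. TCACGTGA, a form searched for after these sequences had been seen, lay in 2 (4.17%), against 0.907%. The early endosomal genes that held CACGTG were Rab5a and Rab20, which rose, and Rab21, which fell. Rab23 and a second start of Rab27a held it too. Their 120 bases before the start are shown, with CACGTG in capitals, or TCACGTGA where the longer form is present, because the same letters stand before genes that moved in opposite directions. Rab5a is at chr17:53479114-53479233 (plus strand), Rab20 at chr8:11478641-11478760 (minus strand) and Rab21 at chr10:115315592-115315711 (minus strand).
Rab5a: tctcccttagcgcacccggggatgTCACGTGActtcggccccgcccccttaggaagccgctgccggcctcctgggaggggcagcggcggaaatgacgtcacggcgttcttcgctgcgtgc
Rab20: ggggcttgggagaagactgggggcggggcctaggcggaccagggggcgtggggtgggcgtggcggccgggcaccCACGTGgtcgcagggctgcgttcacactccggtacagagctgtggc
Rab21: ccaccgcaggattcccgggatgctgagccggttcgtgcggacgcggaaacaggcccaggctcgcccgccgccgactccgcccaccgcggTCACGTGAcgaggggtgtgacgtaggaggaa

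**Figure D3:**
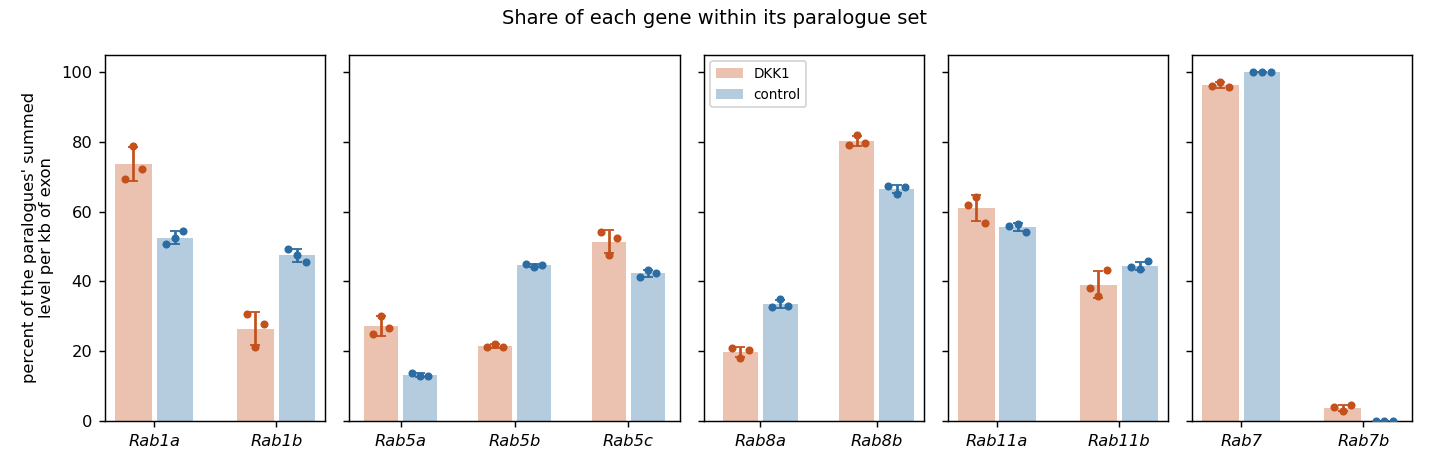
Percent of the summed level per kb of exon contributed by each gene of 5 sets of Rab genes with the same number (points, libraries; bars, mean; error bars, SD, n = 3 per group; DKK1 left of control). Rab1a and Rab5a hold larger shares in DKK1, Rab5b and Rab8a smaller ones, and Rab7b appears beside Rab7 in DKK1.

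Late endosomal and lysosomal Rabs held the family's most abundant transcript, which did not pass, and a near-silent one that rose. Of 11 tested, 4 were higher, 4 lower and 3 did not pass (median change -0.034 on the log2 scale), and without Rab34 and Rab36 the counts were 3 higher, 3 lower and 3 not past. These counts lie near the 35.1% higher and 36.1% lower of all tested genes. The summed level per kb was 3741 ± 436 in DKK1 and 4114 ± 47.1 in control, with overlapping libraries (SD, n = 3 each). As a share of the family's summed level per kb, the class made up 37.5% ± 1.91 in DKK1 and 27.9% ± 0.129 in control (SD, n = 3 each).

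Rab7, the Rab of late endosomes, lysosomes and late phagosomes, had 6442, 7386 and 6422 normalized counts in DKK1, against 7156, 6956 and 7005 in control. It ranked first per kb in both groups, its groups overlapped, and it did not pass (limma adjusted p = 0.385, log2 change -0.063, SE 0.062). That holds for the deposited scaling: with equal totals Rab7 was higher (log2 change 0.47, adjusted p = 5.71e-06), and likewise with quantile normalization (0.50), and without DKK1 library 2 it was called lower (-0.13).

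Rab7b (ENSMUSG00000052688.13, chromosome 1, 131688695 to 131715439, plus strand), which acts between late endosomes and the Golgi, had 461, 365 and 527 normalized counts in DKK1, against 3.29, 1.12 and 4.93 in control. Its 1529 reads in DKK1 and 9 in control gave a 145-fold higher mean (limma adjusted p = 2.1e-07, log2 change 6.89, SE 0.37). It supplied 3.67% ± 0.872 of the summed Rab7 and Rab7b level per kb in DKK1, and 0.0249% ± 0.0153 in control.

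Rab9, which returns mannose 6-phosphate receptors from late endosomes to the Golgi, had 540.4, 795 and 508 in DKK1, against 125, 114 and 102 in control, 5.40-fold higher (limma adjusted p = 1.53e-06, log2 change 2.40, SE 0.17). Rab12 had 90.2, 139 and 114 in DKK1 and 64.8, 60.3 and 52.2 in control, 1.94-fold higher. Rab32, a Rab of lysosome-related organelles, had 918, 1442 and 781 in DKK1, against 2164, 2118 and 2149 in control, 2.05-fold lower. Rab32 and Rab9 were both highest in DKK1 library 2, the library with the fewest reads; without it the log2 change of Rab32 was -1.34 in place of -1.08. Among 29 Rab genes averaging 100 or more in DKK1, 16 (55.2%) were highest in that library, against 46.9% of all such genes, and 12 (41.4%) were lowest in it, against 36.3%.

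Rab24, linked to autophagy, was 1.80-fold lower, with 446, 409 and 394 in DKK1 and 728, 775 and 749.7 in control. It shares 1258 exon bases with Prelid1 on the opposite strand (1062 ± 99.9 in DKK1 and 1253 ± 43.7 in control). Rab29, a partner of the kinase LRRK2, stood at 13.5 ± 2.35 in DKK1 and 62.1 ± 9.39 in control, 4.596-fold lower. Rab34 had 12 reads in DKK1 and 0 in control, at least 4.02-fold higher against a floor of 3 reads over the control group. Leaving out any of the 3 DKK1 libraries took Rab34 below the filter, so those omissions could not test its call. Rab38 (10 reads in DKK1 and 1 in control) and Rab39 (2 reads in each group) did not pass, Rab39b was too low to test, and Rab42 and Rab9b had no read.

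Recycling Rabs, which return receptors to the cell surface, were mostly lower under the deposited scaling. Over all tested genes 36.1% were lower, and 44.8% of those with a higher group mean of at least 100. Without Rab25, 5 of 6 tested were lower and Rab15 was higher (median change -0.92 on the log2 scale), and with it 6 of 7 were lower (median change -1.05). With equal totals 3 were lower, since Rab11b and Rab11a did not pass and Rab25 did not enter. The class sum per kb was 760.2 ± 20.04 in DKK1 and 1325 ± 15.2 in control (SD, n = 3 each).

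Rab14, which moves cargo between the Golgi and endosomes, had 953, 1079.7 and 1055 normalized counts in DKK1, against 2287, 2325 and 2408 in control, 2.27-fold lower (limma adjusted p = 3.13e-07, log2 change -1.19, SE 0.07). Rab4b, of the rapid recycling route, had 360.0, 335 and 354 in DKK1 and 831, 833 and 761 in control, 2.31-fold lower; Rab4a had no read in either group. Rab35, another fast-recycling Rab, had 391, 335 and 404 in DKK1 and 786, 731 and 817 in control, 2.07-fold lower. In each of these the groups were apart, and each kept its call with equal totals.

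The slow-recycling pair moved less. Rab11b had 701, 674 and 839 in DKK1 and 1228, 1217 and 1366 in control, 1.72-fold lower, and Rab11a had 552, 593 and 539 in DKK1 and 757, 772 and 789 in control, 1.38-fold lower (limma adjusted p = 6.35e-05 and 0.000359). With equal totals Rab11a was at 0.070 on the log2 scale and Rab11b at -0.26, and neither passed.

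Rab15 (ENSMUSG00000021062.16, chromosome 12, 76797960 to 76822908, minus strand), described on recycling endosomes of neurons, had 269.8, 331 and 305 normalized counts in DKK1, against 0, 2.23 and 1.97 in control. Its 976 reads in DKK1 and 4 in control gave a 215-fold higher mean, the largest rise among the 48 tested (limma adjusted p = 5.99e-07, log2 change 7.15, SE 0.45). Without control library 1, which had no read, it was 144-fold higher. No DKK1 library came near the control libraries. Rab25 had 0 reads in DKK1 and 4 in control and lost its call without any DKK1 library in turn, and Rab17 had no read.

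ER and Golgi Rabs, which serve the early secretory route, held 4 higher and 7 lower of 11 tested (median change -0.49 on the log2 scale), or 5 and 5 with equal totals. Rab1a, which takes vesicles from the ER to the Golgi, had 2197, 2835 and 2249 in DKK1, against 1265, 1341 and 1398 in control, 1.82-fold higher (limma adjusted p = 4.72e-05, log2 change 0.85, SE 0.10). Its close relative Rab1b had 578, 453 and 518 in DKK1, against 735, 731 and 700.5 in control, 1.40-fold lower. Rab1a thus made up 73.5% ± 4.86 of the pair's level per kb in DKK1 and 52.5% ± 1.84 in control (exact two-sided permutation test p = 0.1, n = 3 each). The fall of Rab1b vanished with equal totals (log2 change 0.040), whereas Rab1a stayed higher.

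Rab6a, of retrograde Golgi traffic, had 1424, 1206 and 1382 in DKK1, against 3294, 3282 and 3400.0 in control, 2.49-fold lower (limma adjusted p = 2.33e-07, log2 change -1.32, SE 0.07). Rab43 had 464, 497 and 332 in DKK1 and 1047, 971 and 992 in control, 2.33-fold lower. The overlapping same-strand model Gm45140 shares 4164 of its exon bases, so reads of Rab43 may be split between them. Gm45140 stood at 117, 132 and 299 in DKK1 and at 0, 175 and 90.6 in control. Its mean was thus higher in DKK1, with overlapping groups, and the fall of Rab43 may be overstated. Rab33b, which binds the autophagy machinery, had 254, 249 and 268 in DKK1 and 549, 549.6 and 549 in control, 2.14-fold lower. Rab18, found on lipid droplets and the ER, had 534, 469.8 and 522 in DKK1 and 333, 334 and 291 in control, 1.59-fold higher.

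Rab2a, of ER to Golgi traffic, was close between groups, with 802, 823 and 768 in DKK1 and 921, 948 and 866 in control (log2 change -0.19, limma adjusted p = 0.0335). Its direction flipped with equal totals (0.34) and quantile normalization (0.21), and its call was lost on leaving out DKK1 library 1 or 3 or control library 1 or 2. The low genes Rab19 and Rab6b were lower and Rab2b and Rab33a higher, at group means of 1.10 to 68.5 (the call of Rab2b was lost without DKK1 library 3, control library 2 or control library 3), and Rab30 was too low to test. Rab33a rests on 48 reads in DKK1 and 3 in control.

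Of the genes placed in no compartment, Rab23, known from Hedgehog signalling in the mouse, had 11.2, 13.7 and 4.08 in DKK1, against 242, 208 and 233 in control. It was 23.5-fold lower (limma adjusted p = 4e-06, log2 change -4.56, SE 0.38). Rab28 had 76.0, 103 and 78.4 in DKK1 and 198, 152 and 168 in control, 2.01-fold lower. Rab40c, part of a ubiquitin ligase, did not pass (limma adjusted p = 0.607), and Rab40b had 3 reads.

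**Figure D4:**
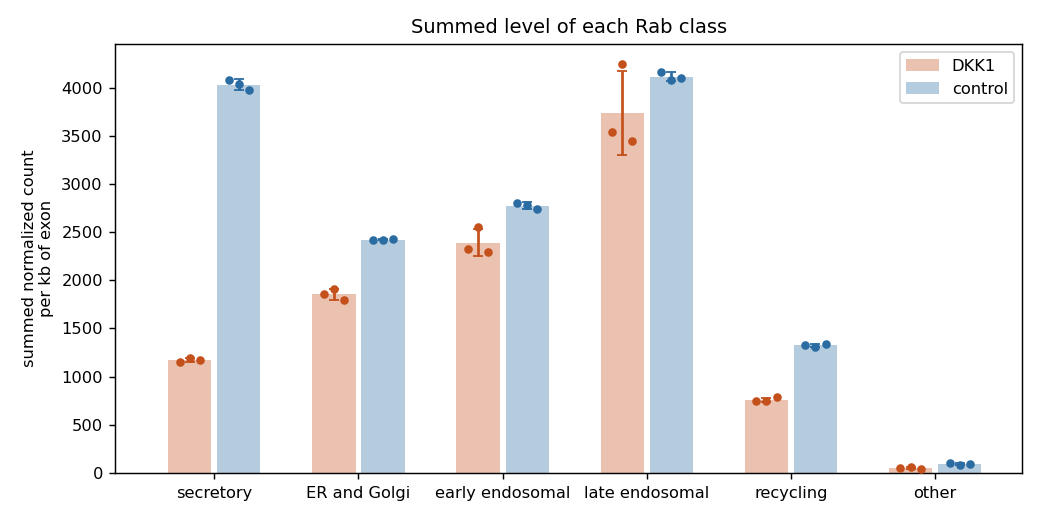
Summed normalized count per kb of exon for each class of Rab genes (points, libraries; bars, mean; error bars, SD, n = 3 per group; DKK1 left of control). The secretory class stands at 1171 in DKK1 and 4032 in control, while the late endosomal class overlaps between groups through DKK1 library 2.

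Proteins that Rabs recruit were read from lists of effectors, whose counts stand beside the 36.1% lower, 35.1% higher and median of -0.029 over all tested genes. Late endosomal effectors were mostly higher: 13 of 17 tested were higher, 2 lower and 2 did not pass (median change 1.23 on the log2 scale). Among them Rilpl2, a RILP-like protein, averaged 3677 ± 494 in DKK1 and 213 ± 1.23 in control, 17.3-fold higher (limma adjusted p = 9.06e-10, log2 change 4.10, SE 0.10). Plekhm2, an adaptor that links lysosomes to kinesin, averaged 2909 ± 344 in DKK1 and 285 ± 18.7 in control, and Osbpl1a, a sterol sensor that binds Rab7, 324 ± 6.53 in DKK1 and 37.3 ± 8.41 in control. Members Vps11, Vps16, Vps18, Vps33a, Vps39 and Vps41, all of the HOPS tether that fuses endosomes with lysosomes, were all 6 higher, from 1.37-fold for Vps41 to 4.21-fold for Vps33a; the HOPS set was singled out after its values were seen.

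Early endosomal effectors were higher in 9 of 12 cases and lower in 3 (median change 0.96 on the log2 scale), or 9 and 1 with equal totals. Eea1, the tether that Rab5 recruits to early endosomes, averaged 2712 ± 348 in DKK1 and 716 ± 15.2 in control, 3.79-fold higher (limma adjusted p = 8.26e-08, log2 change 1.91, SE 0.09). Appl2, an adaptor of Rab5 endosomes, was 6.60-fold higher, and Vps8, of the CORVET tether, 5.02-fold higher.

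Secretory effectors were lower in 7 of 11 tested and higher in 3 (median change -0.98 on the log2 scale), or lower in 6 of 10 without Rph3al, which reached the filter in control alone (median change -0.68). The summed level of the list went the other way, at 1063 ± 76.9 normalized counts per kb of exon in DKK1 and 867 ± 17.2 in control (SD, n = 3 each). Unc13d (Munc13-4), the Rab27a effector of granule release, averaged 29.7 ± 8.06 in DKK1 and 1362 ± 82.7 in control, 45.9-fold lower (limma adjusted p = 6.41e-09, log2 change -5.50, SE 0.18). Myo5a, the myosin that carries Rab27a and Rab10 vesicles, averaged 11251 ± 600.1 in DKK1 and 909 ± 51.2 in control, 12.4-fold higher (limma adjusted p = 2.25e-10, log2 change 3.63, SE 0.06). Micall2, a Rab8 and Rab13 effector, was 6.74-fold higher.

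Recycling effectors were lower in 10 of 17 tested and higher in 3 (median change -0.51 on the log2 scale), or 7 and 6 with equal totals. Rab11fip4, a Rab11 adaptor, averaged 2.11 ± 2.04 in DKK1 and 3524 ± 155 in control, 1673-fold lower, or 3152-fold lower without DKK1 library 3 (limma adjusted p = 9.95e-08, log2 change -10.44, SE 0.50). Rab11fip5, of the same adaptor family, was 17.5-fold lower, and Exoc6, an exocyst subunit, 13.2-fold lower.

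**Figure D5:**
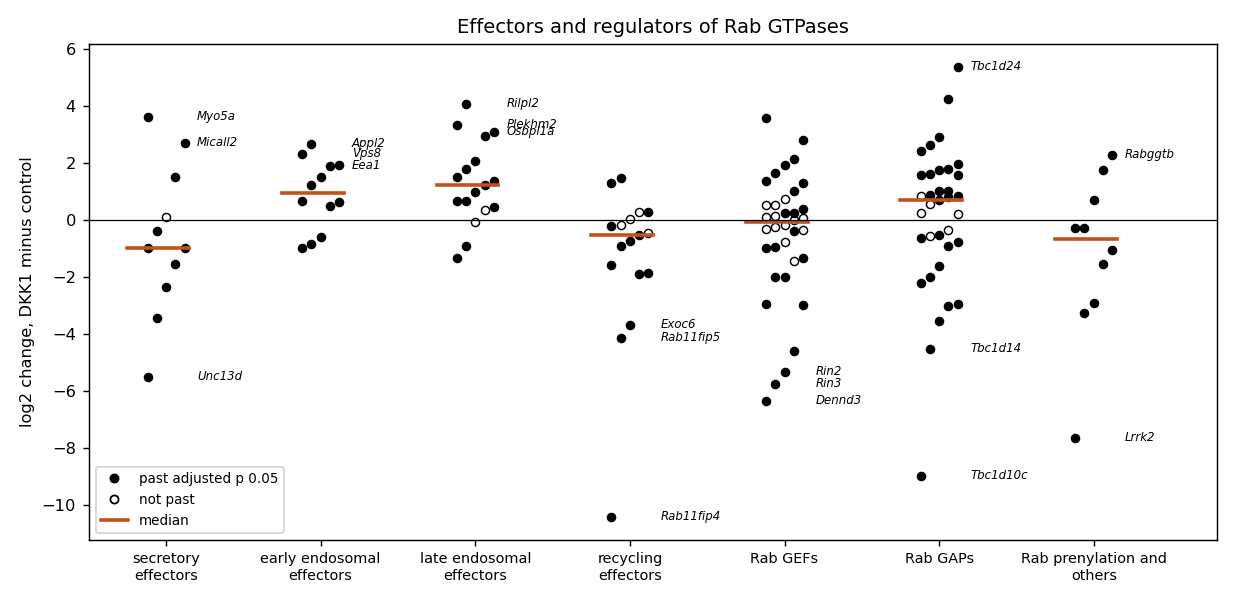
Log2 change in normalized count (DKK1 minus control) of each tested gene in 7 lists of Rab effectors and regulators, with the list median as a bar and up to 3 genes of large change named in each list. Medians are 1.23 for late endosomal and 0.96 for early endosomal effectors, and -0.98 for secretory and -0.51 for recycling effectors.

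Among the GEFs that activate Rabs, 12 of 36 tested were lower, 11 higher and 13 did not pass (median change -0.073 on the log2 scale), or 11 lower and 17 higher with equal totals. These shares lie near the 36.1% lower and 35.1% higher of all tested genes, and without Dennd2b, which had 36 reads in DKK1 and 0 in control, 10 of 35 were higher. Dennd3, an exchange factor for Rab12, averaged 35.6 ± 6.48 in DKK1 and 2945 ± 82.1 in control, 82.8-fold lower. The Rab5 exchange factors Rin3 and Rin2 were 53.5-fold and 41.2-fold lower. Among genes listed as GAPs, 17 of 35 were higher, 12 lower and 6 did not pass (median 0.71), or 20 and 9 with equal totals. Tbc1d10c averaged 2.95 ± 1.43 in DKK1 and 1923 ± 45.5 in control, 652-fold lower (limma adjusted p = 2.72e-09, log2 change -8.99, SE 0.25). Tbc1d24 was 43.2-fold higher and Tbc1d14, which acts in autophagy, 22.6-fold lower. Whether each listed gene acts as a GAP was not tested.

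The last list joins proteins that lipidate, phosphorylate or bind Rabs, of which 7 of 10 were lower and 3 higher, or 5 and 4 with equal totals. Lrrk2, the kinase that phosphorylates several Rabs, averaged 26.0 ± 10.1 in DKK1 and 5192 ± 52.3 in control, 199.7-fold lower (limma adjusted p = 2.93e-09, log2 change -7.65, SE 0.22). Rabggtb, a subunit of the enzyme that attaches the lipid anchor, averaged 164 ± 19.0 in DKK1 and 32.5 ± 2.19 in control.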

How the data were processed

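The authors deposited a non-negative signal for each gene, normalized counts per the file headers; the genome build was mm10, per the submitters' processing notes. Which aligner, counter and size factors they used is not stated in the sources used here, and 3 columns that match none of the samples were not used. All values were whole multiples of the value of 1 read (100% within 0.001 reads), which gave read totals. Reads carry no molecular identifiers, so floors cover counting error only.

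Genes with a value of at least 1 in at least 3 of 6 libraries were fitted with limma 3.58.1 (R 4.3.3; trend, robust) on log2(value + 1), which understates changes of low genes. P-values were two-sided and adjusted by Benjamini-Hochberg over all genes. Folds are ratios of group means. Levels per kb divide by the merged exon length of GENCODE M21 (GRCm38), the source of all gene positions. Members, classes and lists were chosen with earlier results of these data known. Values per library were given for members with a higher group mean of at least 100, and effectors named were the 3 of largest change per list, except 1 that is not reported here. The fit was also run on simulated data with an assumed spread and few changed genes, unlike these libraries, so that run gives no support to the calls. Alternatives included edgeR 4.0.16 and DESeq2 1.42.0 on recovered reads.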

Additional observations from a re-analysis of the deposited data

How the results depend on the processing

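Across the alternatives to the fit, the counts of Rab genes stayed within 11 to 17 higher and 22 to 29 lower, except that requiring a log2 change of at least 1 left 8 higher. That requirement also left 1 ER and Golgi Rab higher, 4 secretory, 0 early endosomal, 1 late endosomal and 6 recycling effectors lower. With equal totals the counts were 3 recycling Rabs lower, 1 other Rab (Rab40c) higher, 17 GEFs higher, 1 early endosomal effector lower and 6 recycling effectors higher. Recycling effectors numbered 5 higher with quantile normalization, 1 with DESeq2 and 1 to 4 on leaving out each library in turn (1 without control replicate 1). Over the same omissions 11 to 13 Rab genes were higher and 25 to 27 lower. edgeR on recovered reads called the same 13 and 28 Rab genes, and DESeq2 12 and 26 of them.

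Signs turned for a few genes. With equal totals the log2 change was 0.040 for Rab1b, 0.34 for Rab2a, 0.47 for Rab7 and 0.070 for Rab11a. With quantile normalization it was 0.21 for Rab2a, 0.50 for Rab7 and 0.021 for Rab39. Rab5c stood at -0.034 with median-of-ratios scaling, -0.026 by edgeR and -0.031 by DESeq2. On leaving out each library in turn, Rab13 ranged from -0.045 to 0.38, Rab39 from -0.39 to 0.31 and Rab40c from -0.031 to 0.25. The cause was not tested.

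With the replicate number as a block, 12 Rab genes were higher and 26 lower, all of them among the main calls. Libraries with the same number did not deviate together (correlations -0.0075 to 0.011 over 8260 genes). Differences among libraries of a group could hide a shared source, so this cannot settle whether the numbers pair them. Apart from the required log2 change of at least 1, calls lost in at least 1 alternative were those of Rab1b, Rab2a, Rab2b, Rab11a, Rab11b, Rab25, Rab33a, Rab34 and Rab36. Rab33a and Rab34 lost theirs only where they did not reach the filter. Rab3a, Rab5c, Rab7, Rab38 and Rab40c gained a call. Requiring a log2 change of at least 1 also removed the calls of Rab1a, Rab5a, Rab8b, Rab12, Rab18 and Rab24. At this depth no change was detectable in the 11 untested members, which had at most 4 reads per group, and 4 of them no read in any library.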
